A study of Mus musculus with 8 samples.

Results

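Interleukin receptor genes were examined in dendritic cells of 2 tissues. They were chosen by name, as the genes whose symbol reads Il, a number and then r, together with Il6st and without Il3ra, and the brightest probe set stood for each gene. This gave 36 genes of the 19938 measured. In RefSeq 41 mouse genes carry such a name, and the other 5 (Il1r1, Il1rl1, Il2rg, Il11ra1 and Il11ra2) were not analysed here. The name rule also takes in Il1rn, which encodes a secreted antagonist of IL-1 and is not a receptor, and Il22ra2, which encodes a soluble binding protein of IL-22.

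The comparison was between myeloid dendritic cells, sorted from marrow of femur and tibia, and splenic classical dendritic cells (4 arrays per tissue). The 4 mice were 8 weeks old and each gave 1 bone marrow and 1 spleen sample. All were CX3CR1-gfp/+, so the reporter replaces 1 Cx3cr1 allele in both groups. RNA was measured on Affymetrix mogene 1.0 ST arrays, and values are intensities on a linear scale unless a log2 scale is named. The source label of the bone marrow samples reads sorted myeloid cells. No surface markers used for sorting were named in the sources used here.

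Most interleukin receptors pair a chain that binds 1 ligand with a chain shared between several receptors. Class I and class II cytokine receptors have no kinase of their own and signal through Janus kinases (JAK) bound to their tails, which phosphorylate STAT transcription factors. Receptors of the IL-1 family signal through Myd88 and IRAK kinases, and those of the IL-17 family through the adaptor Act1, encoded by Traf3ip2. In dendritic cells such receptors are known to tune maturation and cytokine output, with IL-10 acting as a brake.

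The summed intensity of 6 shared classical dendritic genes was 47020 to 50720 in bone marrow, against 50900 to 53630 in spleen. Most of this sum came from H2-Ab1, H2-Aa and Cd74, which did not pass the test, so the sum cannot check the label of dendritic cells. Flt3, Itgax and Zbtb46 were lower in bone marrow. Flt3 averaged 1967 in bone marrow and 4078 in spleen, and Zbtb46 214 in bone marrow and 520 in spleen. Itgax averaged 6409 in bone marrow and 8432 in spleen. Other cell type markers differed between the groups. All 12 neutrophil markers were higher in bone marrow (summed intensity 21300 to 29310 in bone marrow, 1552 to 1823 in spleen), as were all 5 measured monocyte markers (16050 to 18080 in bone marrow, 3944 to 4574 in spleen) and 7 of 10 macrophage markers (21350 to 31060 in bone marrow, 3506 to 4153 in spleen). Of 11 T cell, NK cell and innate lymphoid markers 5 were lower in bone marrow and none higher (1530 to 1952 in bone marrow, 3370 to 3640 in spleen), and of 6 measured B cell markers 4 were lower and 1 higher (1419 to 1558 in bone marrow, 3064 to 3506 in spleen). Of 10 basophil, mast cell and eosinophil markers 8 were higher (1293 to 3232 in bone marrow, 687 to 717 in spleen), as were 2 of 3 measured erythroid markers (556 to 954 in bone marrow, 167 to 312 in spleen). Among dendritic subsets, 3 of 6 cDC1 markers were lower in bone marrow, 2 of 6 cDC2 markers were higher and 2 lower, and 1 of 6 plasmacytoid markers was higher and 3 lower. No marker was at 0, but neither was any other gene. The lowest intensity of an array was 5.17 to 5.93, so this does not show that a marker was detected. These arrays measure sorted populations in bulk, so fewer cells of a type and less RNA per cell cannot be told apart, and the part of these other cells in the results below was not tested.

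Sequences upstream of the start site are shown for 5 receptor genes, so that those with large falls and rises can be read side by side. They are Il1r2, Il12rb2 and Il21r, which fell at least 2-fold in bone marrow, and Il1rap and Il1rl2, which had the largest rises. Each is the 250 bases before the RefSeq start in GRCm38.p6, written 5′ to 3′ on the strand of the gene. Capitals mark matches, on either strand, to any of 7 motifs. These were GAGGAAGT (PU.1-type ETS), TTCNNNGAA (STAT), TGANTCA (AP-1), TTGCNNAA (C/EBP), GGAA and GAAA spaced by 2 bases (ETS-IRF composite), GAAA and GAAA spaced by 2 bases (ISRE type), and GGG and TTTCC spaced by 2 bases (NF-kB). None of the matches shown overlaps another.
Il1r2, chr1:40085843-40086092, plus strand: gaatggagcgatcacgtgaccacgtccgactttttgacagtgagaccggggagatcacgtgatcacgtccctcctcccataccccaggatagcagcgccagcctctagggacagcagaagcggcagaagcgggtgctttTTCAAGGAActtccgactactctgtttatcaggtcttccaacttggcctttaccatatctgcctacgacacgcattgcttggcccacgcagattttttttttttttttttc
Il12rb2, chr6:67376189-67376438, minus strand: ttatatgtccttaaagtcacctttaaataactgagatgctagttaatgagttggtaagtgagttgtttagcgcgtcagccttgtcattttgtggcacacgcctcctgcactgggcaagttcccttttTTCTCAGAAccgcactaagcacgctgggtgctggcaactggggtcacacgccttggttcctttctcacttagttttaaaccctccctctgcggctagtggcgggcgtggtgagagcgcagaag
Il21r, chr7:125603179-125603428, plus strand: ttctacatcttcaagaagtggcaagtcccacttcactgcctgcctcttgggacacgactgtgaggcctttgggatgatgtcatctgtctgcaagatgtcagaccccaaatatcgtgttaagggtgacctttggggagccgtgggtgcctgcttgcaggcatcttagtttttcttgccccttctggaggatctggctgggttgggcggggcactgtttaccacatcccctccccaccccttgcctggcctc
Il1rap, chr16:26581455-26581704, plus strand: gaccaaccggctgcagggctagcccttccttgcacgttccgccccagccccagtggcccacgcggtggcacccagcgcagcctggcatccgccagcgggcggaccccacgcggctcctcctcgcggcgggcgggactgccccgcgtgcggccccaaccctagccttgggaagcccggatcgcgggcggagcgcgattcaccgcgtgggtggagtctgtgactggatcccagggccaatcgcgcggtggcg
Il1rl2, chr1:40324339-40324588, plus strand: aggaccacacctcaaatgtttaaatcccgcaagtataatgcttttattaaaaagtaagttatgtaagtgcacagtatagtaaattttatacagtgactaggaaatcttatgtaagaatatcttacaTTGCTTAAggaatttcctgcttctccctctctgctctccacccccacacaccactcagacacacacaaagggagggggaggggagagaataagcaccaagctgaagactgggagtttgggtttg

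The STAT letters stood 111 bases before the start of Il1r2 and 123 bases before that of Il12rb2, and the C/EBP letters 124 bases before that of Il1rl2. None of the 7 motifs lay in the windows of Il21r and Il1rap. Of the 36 receptor genes 29 had a window in the RefSeq table, and 5 of these held the STAT letters. These 5 were Il1r2, Il12rb2 and Il7r, all lower in bone marrow, and 2 genes not called. The STAT letters occur in 7.02% of all 32851 windows of the table and the C/EBP letters in 9.56%. The C/EBP letters occurred in 5 of the 29 genes, which were Il1rl2, higher in bone marrow, Il7r, lower, and 3 genes not called. The ETS-IRF composite, found in 2.3% of all windows, occurred in 1 of the 29 genes, Il6st. AP-1 letters (6.75% of all windows) occurred in 7 of the 29 genes and NF-kB letters (1.41%) in 3, none of them called. PU.1-type letters (2.44%) occurred in 1 and ISRE-type letters (2.98%) in none. A match describes the letters and is not a binding site.

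Receptor genes differed in both directions between the tissues. Each SE given below is limma's and rests on 4 arrays per tissue. Of 36 genes, 13 (36.1%) passed a limma adjusted p of 0.05, against 18.5% of all genes. Of these 7 were higher in bone marrow (19.4%, against 9.26% of all genes) and 6 lower (16.7%, against 9.2%). The same shares of all genes stand beside the counts by receptor family below, which were not tested. The median log2 fold change over the 36 genes, bone marrow over spleen, was -0.02, and over all genes -0.0071. At least 2-fold differences past the threshold were seen in 3 genes (8.33%), against 3.52% of all genes. All 3 were lower in bone marrow, where 1.49% of all genes were lower and 2.02% higher by that much. The 4 values of one tissue all lay above the 4 of the other in 14 of 36 genes, the 13 called genes and Il4ra, against 20.6% of all genes. It follows from this separation that the difference had the same direction in all 4 mice in each of the 13 called genes, which adds no further support.

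Few dim receptor genes passed. The intensities carried no detection call, and it is not known which dim genes exceeded background. Of the 36 genes 14 were among the dimmest 40% of all genes by mean log2 intensity, and only Il1rl2 of these passed, while 4.58% of all such dim genes did. Of the other 22 receptor genes 12 passed (54.5%), against 27.7% of all genes of that brightness. Among the 23 genes not called, log2 fold changes lay between -0.28 and 0.28, and the widest 95% intervals reached down to -0.64 (Il2rb) and up to 0.49 (Il4ra).

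**Figure D1:**
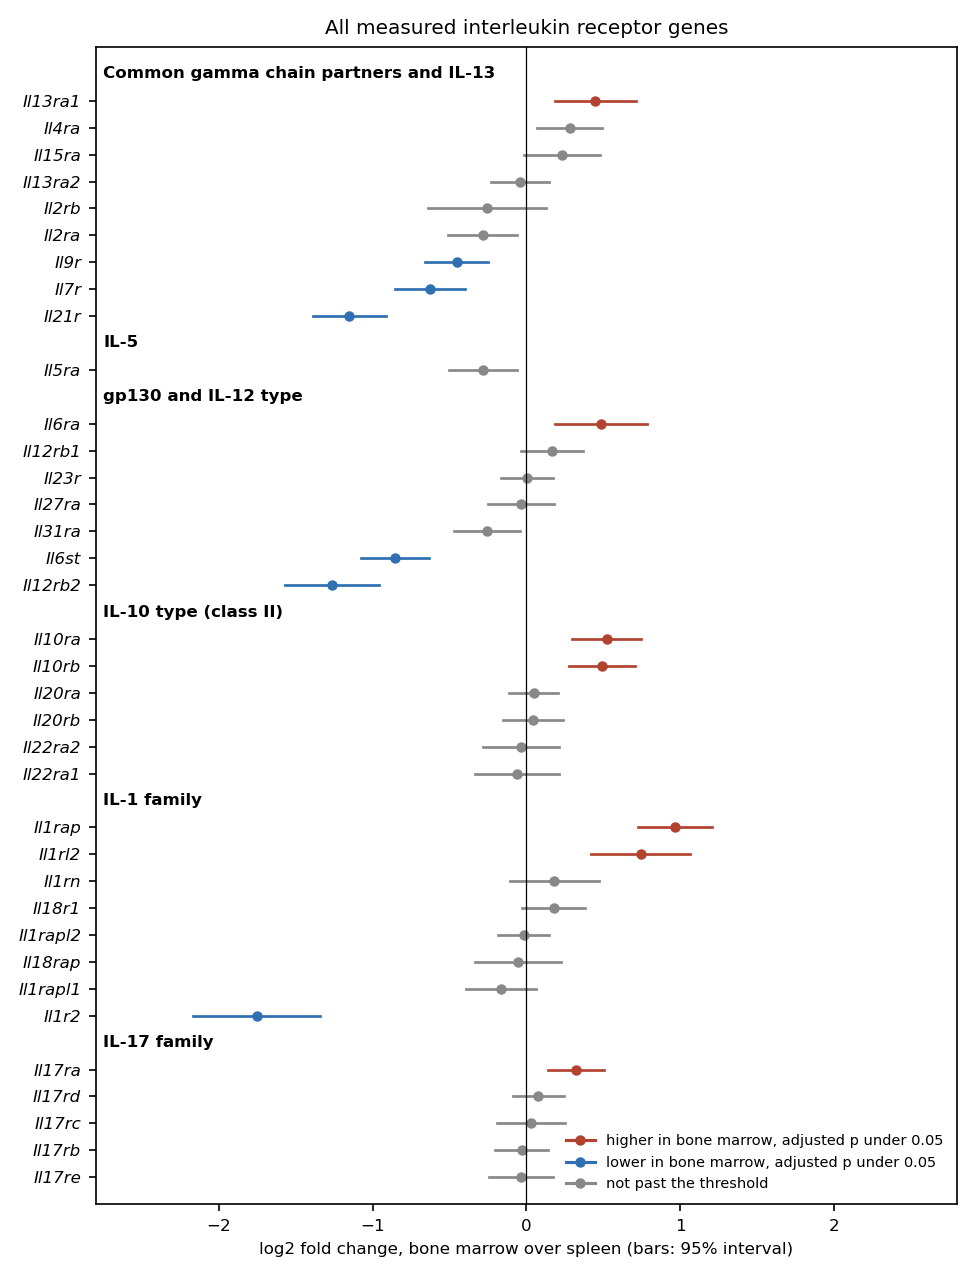
Log2 fold change of bone marrow over spleen (x axis) for all 36 measured genes, grouped by receptor family, with bars for limma's 95% interval. The 7 genes in red and 6 in blue passed an adjusted p of 0.05, and Il1r2 at -1.75 and Il1rap at 0.96 mark the ends of the range.

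The IL-1 family held both the largest fall and the largest rise among the receptor genes. Of 8 measured genes 2 rose in bone marrow, 1 fell and 5 did not pass. Il1r2, the decoy receptor that binds IL-1 without signalling, stood at 154, 84.4, 170 and 122 in bone marrow replicates 1 to 4, against 493, 350, 500 and 404 in spleen. Every spleen array lay above every bone marrow array, and replicate 2 was the lowest of each tissue. Il1r2 was 3.37-fold lower in bone marrow (log2 fold change -1.75 with SE 0.19, limma adjusted p = 2.05e-05). Neutrophils are known to express this receptor, and as given above, neutrophil markers were higher in bone marrow. Their part in the Il1r2 values was not tested.

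Il1rap encodes the accessory protein that completes the receptors for IL-1, IL-33 and IL-36. Its intensity was 203, 237, 199 and 238 in bone marrow and 114, 119, 128 and 91.2 in spleen. The groups were well apart, and spleen replicate 4 was the lowest array. The log2 fold change was 0.96 with SE 0.11 (n = 4 per group, limma adjusted p = 3.36e-05), a 1.95-fold rise. Il1rl2, the ligand-binding chain for IL-36, rose with it. It stood at 76.3, 86.7, 75.0 and 80.2 in bone marrow and at 34.2, 53.4, 44.5 and 62.5 in spleen, so that the bone marrow arrays were tightly grouped and the spleen arrays spread. Il1rl2 was 1.67-fold higher (0.74 with SE 0.15, limma adjusted p = 0.0031), a dim gene whose fold a background signal would compress.

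The other IL-1 family genes did not pass. Il18r1, the ligand-binding chain of the IL-18 receptor, stood between 34.9 and 47.5 in bone marrow, against 34.0 to 34.9 in spleen, and its partner Il18rap between 93.1 and 115 in bone marrow, against 79.9 to 129 in spleen. Il1rn, the secreted IL-1 antagonist, stood between 347 and 400 in bone marrow, against 272 to 447 in spleen (limma adjusted p = 0.481). Its 4 bone marrow arrays lay inside the range of the spleen arrays. Il1rapl1 and Il1rapl2, which are known mainly from neurons, lay at brightness percentiles 6.6 and 1.95 of all genes.

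In the gp130 and IL-12 group, 1 gene rose in bone marrow, 2 fell and 4 did not pass. Il6st encodes gp130, the signalling chain shared by the receptors of IL-6, IL-11, IL-27 and LIF. It stood at 2208, 2596, 2181 and 2617 in bone marrow and at 4818, 4134, 4699 and 3734 in spleen. All bone marrow arrays lay below all spleen arrays, with a log2 fold change of -0.85 with SE 0.10 (n = 4 per group, limma adjusted p = 5.11e-05). Il6ra, the chain that binds IL-6, differed in the opposite direction, with 3761, 3622, 3858 and 4596 in bone marrow and 3434, 2588, 3280 and 2159 in spleen. Bone marrow replicate 4 was the highest array and spleen replicate 4 the lowest. Il6ra was 1.4-fold higher in bone marrow (0.48 with SE 0.14, limma adjusted p = 0.0262). The gene no longer passed when bone marrow replicate 3, bone marrow replicate 4, spleen replicate 2 or spleen replicate 4 was left out, with limma adjusted p of 0.0524, 0.0773, 0.0789 and 0.0582 in that order, while the log2 fold change stayed at 0.36 or more.

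Il12rb2 encodes the chain of the IL-12 receptor that recruits Stat4 in T cells and NK cells. It stood at 337, 315, 366 and 506 in bone marrow and at 1001, 918, 954 and 745 in spleen. Replicate 4 was the highest bone marrow array and the lowest spleen array, and the groups did not overlap. Il12rb2 was 2.4-fold lower in bone marrow (log2 fold change -1.26 with SE 0.14, limma adjusted p = 2.65e-05). The difference was -1.57, -1.54 and -1.38 on the log2 scale in mice 1, 2 and 3 and -0.56 in mouse 4. Il12rb1, the chain shared by the IL-12 and IL-23 receptors, stood between 119 and 149 in bone marrow, against 111 to 132 in spleen, and Il23r lay at brightness percentile 10.8 of all genes. Neither passed the test. Il27ra, the IL-27-binding chain, stood at a mean of 245 in bone marrow and 251 in spleen, and its 95% interval ran from -0.25 to 0.18 on the log2 scale. Il31ra, the IL-31-binding chain, was lower in bone marrow in all 4 mice and did not pass (-0.26 with SE 0.10, limma adjusted p = 0.106). It passed without bone marrow replicate 4 (adjusted p = 0.0386).

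Chains that pair with the common gamma chain, which itself was not analysed here, were grouped with the IL-13 chains Il13ra1 and Il13ra2. Of these 9 genes 3 fell in bone marrow, 1 rose and 5 did not pass. The 1 that rose was Il13ra1, which is not a partner of the common gamma chain. Il21r, the IL-21-binding chain, stood at 601, 679, 813 and 857 in bone marrow and at 1642, 1570, 1721 and 1559 in spleen. The spleen arrays were close to each other and far above all bone marrow arrays. Il21r was 2.22-fold lower in bone marrow (log2 fold change -1.15 with SE 0.11, limma adjusted p = 5.89e-06). Il7r, the chain shared by the receptors of IL-7 and TSLP, stood at 188, 154, 220 and 178 in bone marrow and at 282, 270, 305 and 276 in spleen. Il7r was 1.54-fold lower (log2 fold change -0.63 with SE 0.10, limma adjusted p = 0.000735), again without overlap. Il9r, the IL-9-binding chain, stood at 103, 107, 98.1 and 86.6 in bone marrow and at 148, 144, 122 and 126 in spleen, a 1.37-fold lower level (adjusted p = 0.00394). Il21r, Il7r and Il9r are well known from lymphocytes. As given above, 5 of 11 T cell, NK cell and innate lymphoid markers were lower in bone marrow and none higher. Of 6 B cell markers 4 were lower and 1 higher. Among the lower ones, Klrd1 and Cd5 had the largest folds of the first list, and Cd22 and Ms4a1 of the second. Klrd1 averaged 661 in bone marrow and 1818 in spleen, and Cd5 172 in bone marrow and 600 in spleen. Cd22 averaged 379 in bone marrow and 1933 in spleen, and Ms4a1 76.8 in bone marrow and 315 in spleen. The higher B cell marker, Vpreb1, averaged 176 in bone marrow and 75.9 in spleen (limma adjusted p = 0.000731). The CD3 chains of T cells were all lower in bone marrow: Cd3g averaged 70.3 in bone marrow and 141 in spleen, Cd3d 91.9 in bone marrow and 144 in spleen, and Cd3e 164 in bone marrow and 206 in spleen (limma adjusted p = 0.0115, 0.0117 and 0.0386 in that order). The NK cell receptor gene Ncr1 did not pass (49.2 in bone marrow, 48.0 in spleen), nor did Nkg7 (180 in bone marrow, 123 in spleen). Thy1, Gata3, Rora and Klrb1c of the same list did not pass either. The B cell marker Cd79b averaged 508 in bone marrow and 480 in spleen and did not pass. Klrd1 alone made up a large part of the summed intensity of its list, 3370 to 3640 in spleen. The part of lymphocytes in the values of Il21r, Il7r and Il9r was not tested.

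Il13ra1, which pairs with Il4ra to form the receptor that binds both IL-4 and IL-13, stood at 1051, 1084, 1022 and 1339 in bone marrow and at 946, 665, 790 and 904 in spleen. The groups did not overlap, but the lowest bone marrow array and the highest spleen array were close. Il13ra1 was 1.36-fold higher in bone marrow (log2 fold change 0.45 with SE 0.12, limma adjusted p = 0.0192). The call ended without bone marrow replicate 4 (adjusted p = 0.0563), spleen replicate 2 (0.0583) or spleen replicate 3 (0.0513). Il4ra, the IL-4-binding chain, stood at 1417, 1368, 1584 and 1526 in bone marrow and at 1304, 1260, 1294 and 1009 in spleen. All bone marrow arrays lay above all spleen arrays, yet the gene did not pass (0.28 with SE 0.10, limma adjusted p = 0.0653). Il13ra2, a decoy for IL-13, lay at brightness percentile 2.16 of all genes.

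The chains that bind IL-2 and IL-15 did not pass. Il2ra, the high-affinity IL-2 chain, stood between 52.6 and 65.4 in bone marrow, against 60.4 to 78.9 in spleen. It was lower in bone marrow in all 4 mice (limma adjusted p = 0.0848), and passed without bone marrow replicate 4 (0.0483) or spleen replicate 2 (0.0328). Il2rb, the signalling chain shared by both receptors, stood at 158, 116, 117 and 124 in bone marrow and at 190, 178, 162 and 99.7 in spleen, where replicate 4 was below every bone marrow array. Its log2 fold change was -0.26 with SE 0.18 with all arrays (adjusted p = 0.439) and -0.46 without spleen replicate 4 (adjusted p = 0.0152). Il15ra, which presents IL-15 to other cells, stood between 294 and 388 in bone marrow, against 255 to 343 in spleen. Il5ra, the IL-5-binding chain, was dim, at 32.8, 28.4, 35.7 and 34.6 in bone marrow and at 35.6, 42.0, 37.3 and 45.2 in spleen, and did not pass (adjusted p = 0.0765).

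Both chains of the IL-10 receptor rose together in bone marrow. Il10ra, the IL-10-binding chain, stood at 2593, 2185, 2577 and 2456 in bone marrow and at 1842, 1585, 1963 and 1467 in spleen. Il10rb, the chain shared with the IL-22 and interferon lambda receptors, stood at 4128, 4829, 4348 and 4657 in bone marrow and at 3389, 3269, 3516 and 2651 in spleen. For both genes the tissues did not overlap, and spleen replicate 4 was the lowest array. Il10ra was 1.44-fold higher (log2 fold change 0.52 with SE 0.10, limma adjusted p = 0.00265) and Il10rb 1.41-fold higher (0.49 with SE 0.10, adjusted p = 0.00304). Monocytes, macrophages and neutrophils are also known to express the IL-10 receptor. All measured monocyte and neutrophil markers and 7 of 10 macrophage markers were higher in bone marrow, as given above. The part of these cells in the Il10ra and Il10rb values was not tested. The other 4 genes of the class, Il20ra, Il20rb, Il22ra1 and Il22ra2, which bind cytokines acting mainly on epithelia, did not pass, with log2 fold changes between -0.06 and 0.05. Il20rb had 3 probe sets with log2 fold changes of 0.12, 0.01 and 0.04, and the 2 probe sets of Il22ra1 differed in sign, at 0.03 and -0.06.

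Of the 5 IL-17 receptor genes, only Il17ra passed. Il17ra, the chain shared by the receptors of IL-17A, IL-25 and IL-17C, stood at 1672, 1796, 1653 and 1995 in bone marrow and at 1412, 1480, 1465 and 1328 in spleen. The groups did not overlap, and Il17ra was 1.25-fold higher in bone marrow (log2 fold change 0.32 with SE 0.08, limma adjusted p = 0.016). It no longer passed without spleen replicates 3 and 4 together (adjusted p = 0.0931). The partner chains Il17rb, Il17rc and Il17re and the related Il17rd had log2 fold changes between -0.03 and 0.08, and their 95% intervals reached from -0.24 to 0.25 at the widest.

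**Figure D2:**
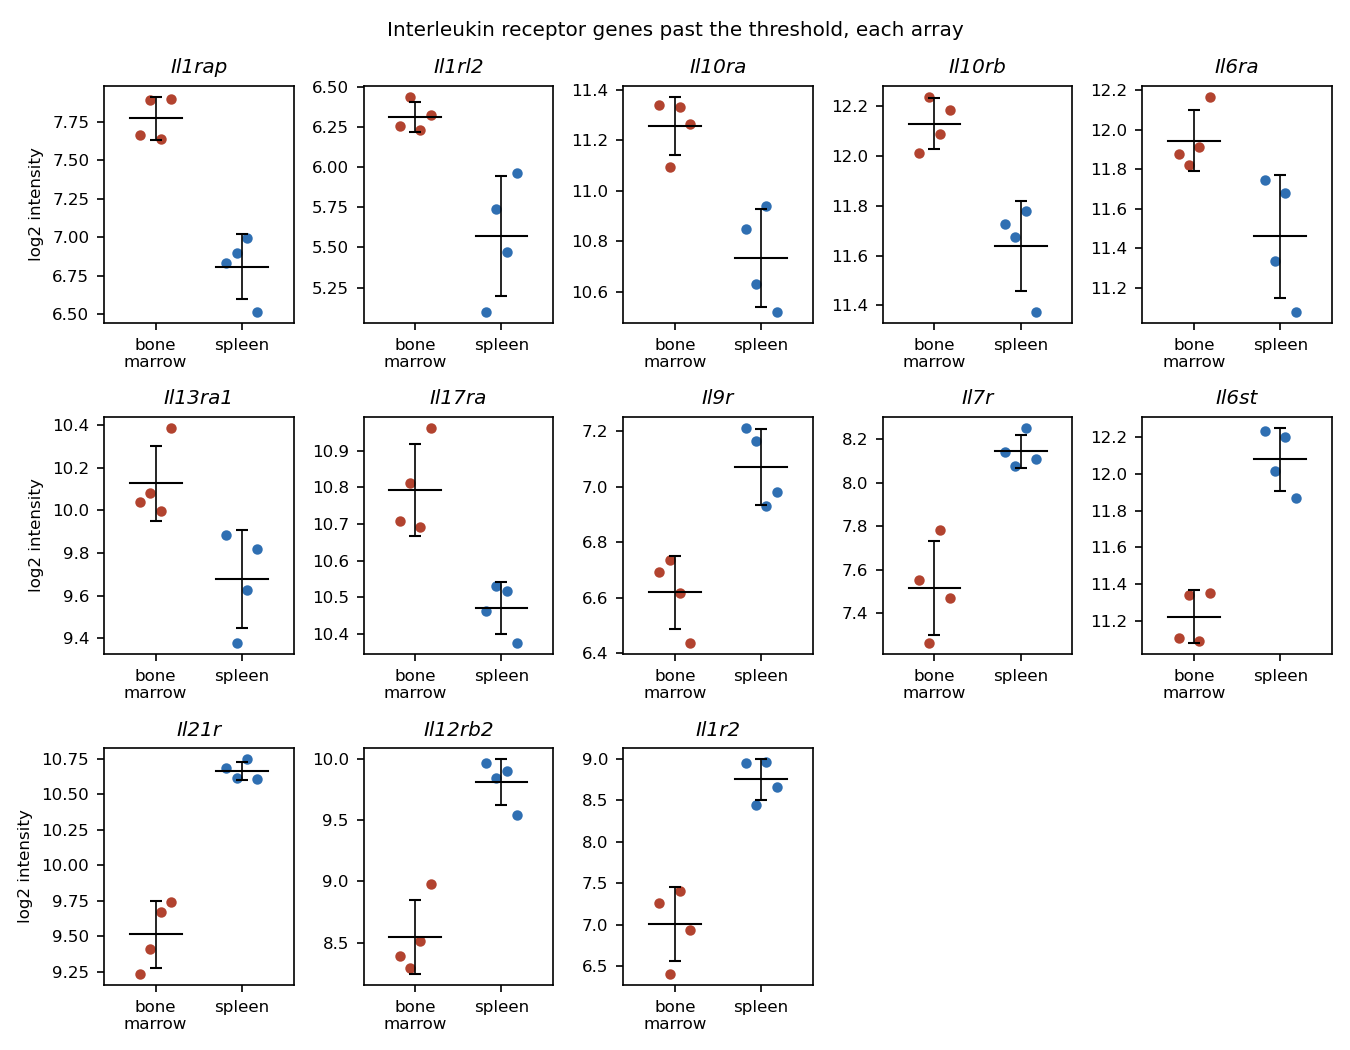
Log2 intensity (y axis, scaled separately in each panel) of the 13 genes past the threshold, on each of 4 bone marrow arrays (red, left) and 4 spleen arrays (blue, right), with points in replicate order, the mean and its SD. In no panel do the tissues overlap, and spleen replicate 4 is the lowest spleen array in 8 of the 13 genes.

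Spread within a tissue was not even between arrays. Spleen replicate 4 held the lowest spleen value in 8 of the 13 called genes, and bone marrow replicate 4 the highest bone marrow value in 7. Over all 36 genes the counts of both replicate 4 arrays were even. Spleen replicate 4 was the lowest spleen array in 12 and the highest in 12, and bone marrow replicate 4 the highest bone marrow array in 10 and the lowest in 10. Some other arrays were uneven over all 36 genes. Most uneven was bone marrow replicate 2, the lowest bone marrow array in 16 and the highest in 3. Both replicate 4 arrays were uneven among the 22 genes outside the dimmest 40%. There spleen replicate 4 was the lowest spleen array in 11 and the highest in 4. Bone marrow replicate 4 was the highest bone marrow array in 9 of the 22 and the lowest in 4. Spleen replicate 4 also had the lowest summed intensity of 6 cDC2 markers, 7921 against 10040 to 10800 in the other spleen arrays, and the highest of 6 cDC1 markers, 9774 against 6984 to 8902. These are markers of the main classical dendritic subsets, and their part in the spread was not tested. Without spleen replicate 4, 6 receptor genes were higher in bone marrow and 7 lower.

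Complete receptors were compared chain by chain, using a list of 25 ligands and their chains, of which 16 had every chain measured. Both chains rose in 2 of these 16, the receptors of IL-10 and IL-36. In 2 others the chains differed in opposite directions: Il6ra rose while Il6st fell in the IL-6 receptor, and Crlf2 rose while Il7r fell in the TSLP receptor. Crlf2, the TSLP-binding chain, stood at 416, 427, 410 and 416 in bone marrow and at 360, 362, 344 and 316 in spleen (log2 fold change 0.27 with SE 0.07, limma adjusted p = 0.0202). The Crlf2 call ended with the mouse as a replicate block (adjusted p = 0.0599), without bone marrow replicate 2 (0.0558) and without spleen replicate 4 (0.0556). In 5 receptors only 1 chain rose, namely Il13ra1, Il10rb for IL-22, or Il17ra, which counts in 3 of them. In 2 receptors only 1 chain fell, Il12rb2 for IL-12 and Il6st for IL-27, and no chain passed in the remaining 5.

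**Figure D3:**
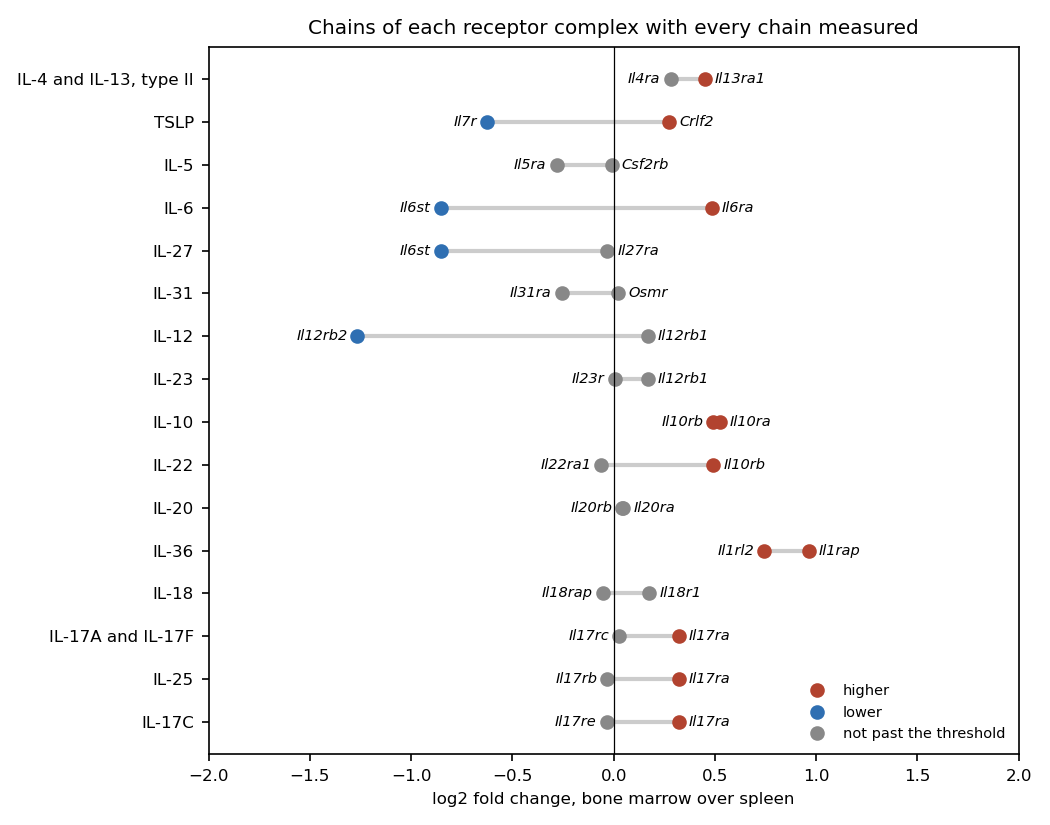
Log2 fold change of bone marrow over spleen (x axis) for each chain of the 16 receptors with every chain measured, 1 receptor per row, with points coloured by whether the gene passed an adjusted p of 0.05. Both points lie right of 0 in red for IL-10 and IL-36, and on opposite sides for IL-6 and TSLP.

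Partner chains outside the name rule complete several of these receptors. Of 7 measured, 2 rose in bone marrow and none fell, while 9.26% of all genes rose and 9.2% fell. Lifr, the LIF receptor that pairs with gp130, stood at 1235, 879, 970 and 941 in bone marrow and at 361, 271, 370 and 316 in spleen. It was 3.05-fold higher in bone marrow (log2 fold change 1.61 with SE 0.12, limma adjusted p = 8.91e-07), opposite to Il6st. Csf2rb, the chain shared by the receptors of GM-CSF and IL-5, averaged 2457 in bone marrow and 2473 in spleen (95% interval of the log2 difference -0.22 to 0.20), and Osmr, the partner of Il31ra, 43.7 in bone marrow and 43.0 in spleen.

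Of 9 JAK and STAT genes 2 fell in bone marrow and 2 rose. Jak2, a kinase that the IL-12 receptor and gp130 are known to use, stood at 736, 767, 655 and 900 in bone marrow and at 2048, 2344, 2346 and 2155 in spleen. The arrays of the tissues lay far apart, and Jak2 was 2.92-fold lower in bone marrow (log2 fold change -1.55 with SE 0.10, limma adjusted p = 1.97e-07). Stat4, the STAT of the IL-12 receptor, was lower as well, at 405, 446, 349 and 493 in bone marrow and 870, 819, 1189 and 868 in spleen (-1.14 with SE 0.13, adjusted p = 3.36e-05). Stat5b was 1.34-fold higher (adjusted p = 0.00279). Stat6, the STAT of the IL-4 and IL-13 receptors, was 1.3-fold higher (adjusted p = 0.0362). The Stat6 call ended with the replicate block (adjusted p = 0.0599), with median centring (0.0541), without any 1 of the 4 bone marrow replicates (0.0593 to 0.096), without spleen replicate 2 (0.0573) and without spleen replicate 4 (0.0548). Tyk2, a kinase of the IL-10, IL-12 and IL-13 receptors, averaged 1072 in bone marrow and 855 in spleen and did not pass (adjusted p = 0.0587), nor did Jak1, Stat2, Stat3 and Stat5a.

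Adaptors of the IL-1 and IL-17 receptors also split, with 2 of 11 higher in bone marrow and 2 lower. Irak3, a kinase-dead member of the IRAK family that restrains signalling, stood at 1472, 1530, 1418 and 1481 in bone marrow and at 463, 290, 313 and 426 in spleen. It was 4.03-fold higher in bone marrow (log2 fold change 2.01 with SE 0.13, limma adjusted p = 2.58e-07), with the bone marrow arrays nearly level. Irak2 was 1.45-fold higher (adjusted p = 0.000782) and Irak1 1.26-fold lower (adjusted p = 0.00568). Traf3ip2 stood at 169, 158, 154 and 181 in bone marrow and at 256, 239, 256 and 260 in spleen, 1.53-fold lower (adjusted p = 8.91e-05), while its receptor chain Il17ra rose. Myd88, the adaptor shared by the IL-1 family receptors, averaged 2905 in bone marrow and 2676 in spleen and did not pass.

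Among 8 regulators 2 rose in bone marrow and 1 fell. Adam10 and Adam17, proteases known to shed the IL-6 receptor from the cell surface, were 1.37-fold and 1.27-fold higher (limma adjusted p = 0.000954 and 0.00604). Socs2, a suppressor induced by cytokine signalling, stood at 80.3, 72.0, 58.3 and 114 in bone marrow and at 354, 323, 315 and 392 in spleen. No other gene of the pathway lists fell as much, and it was 4.37-fold lower (log2 fold change -2.13 with SE 0.16, n = 4 per group, adjusted p = 9.83e-07).

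Most interleukin genes themselves were dim: 23 of 35 lay among the dimmest 40% of all genes. Of the 35, 3 rose and 3 fell in bone marrow, while 9.26% of all genes rose and 9.2% fell. Il1f9, which encodes the IL-36 receptor ligand IL-36 gamma, stood at 122, 109, 158 and 115 in bone marrow and at 45.6, 45.05, 45.7 and 34.9 in spleen. It was 2.93-fold higher in bone marrow (log2 fold change 1.55 with SE 0.13, limma adjusted p = 1.46e-06), as both IL-36 receptor chains were, whereas Il1f6, which encodes IL-36 alpha, was 1.25-fold lower (adjusted p = 0.0194). Il1f6 no longer passed when bone marrow replicate 2 (adjusted p = 0.0615), bone marrow replicate 3 (0.0502) or spleen replicate 4 (0.0536) was left out. Il15 was 2.28-fold and Il27 1.37-fold higher. Il12b, the subunit shared by IL-12 and IL-23, stood at 91.1, 101, 112 and 103 in bone marrow and at 198, 152, 171 and 219 in spleen, without overlap (-0.85 with SE 0.11, adjusted p = 0.000122). Il6, at brightness percentile 4.98 of all genes, averaged 17.1 in bone marrow, against 25.3 in spleen, and was 1.48-fold lower. Il1b, bright in both tissues, averaged 2405 in bone marrow and 2496 in spleen and did not pass (95% interval of the log2 difference -0.25 to 0.14).

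**Figure D4:**
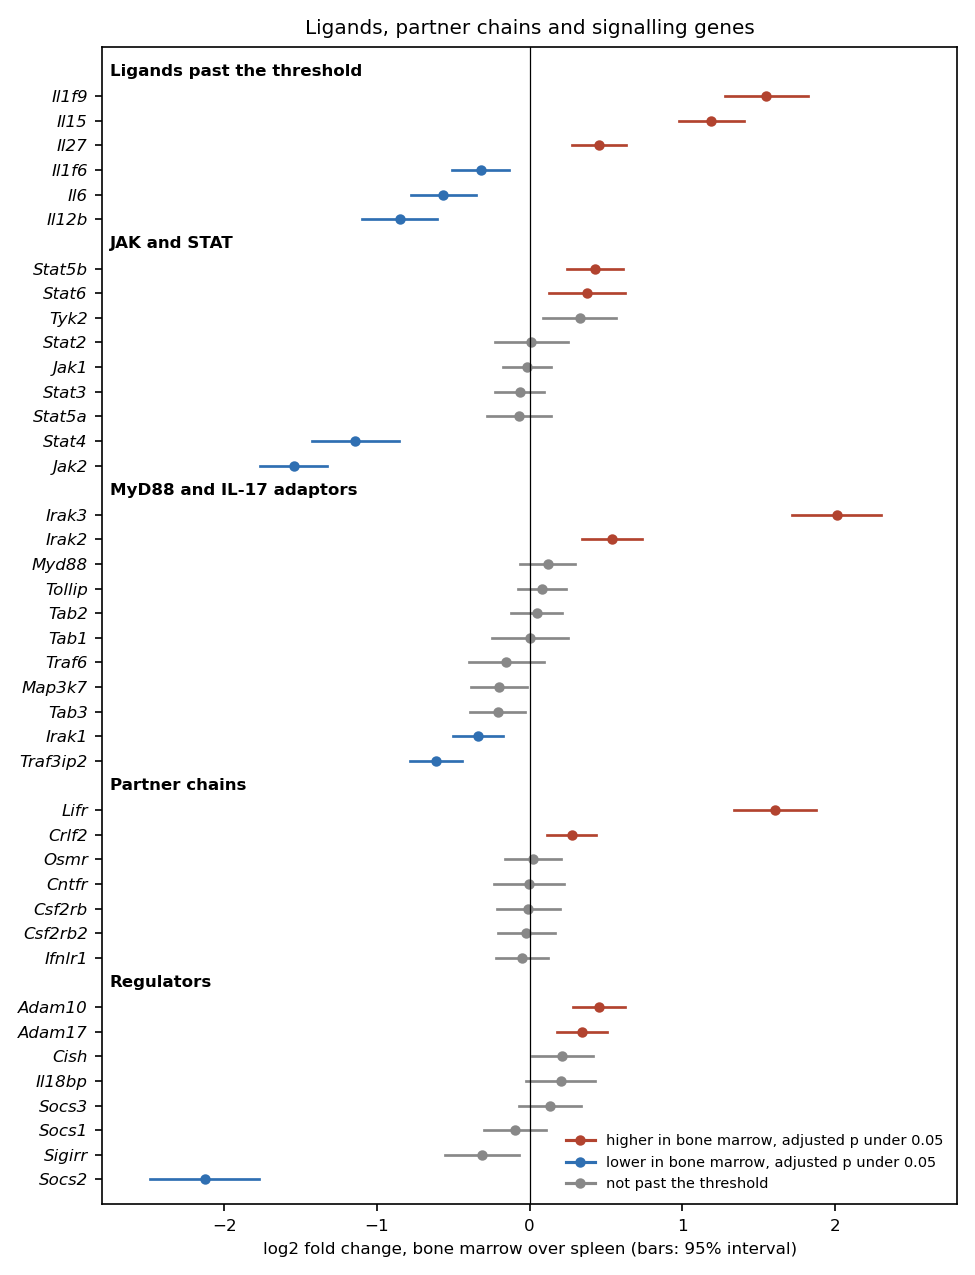
Log2 fold change of bone marrow over spleen (x axis) with limma's 95% interval for the 6 ligand genes past the threshold and for all measured JAK and STAT genes, adaptors, partner chains and regulators. Irak3 at 2.01 and Lifr at 1.61 lie farthest to the right, and Socs2 at -2.13 and Jak2 at -1.55 farthest to the left.

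Several receptor genes lie next to each other in the genome. In RefSeq's order of protein-coding genes, 7 pairs of the 36 genes were direct neighbours, and in none of the 7 did both genes pass. Il21r and Il4ra are neighbours on chromosome 7, with log2 fold changes of -1.15 (limma adjusted p = 5.89e-06) and 0.28 (0.0653). Il12rb2 had a log2 fold change of -1.26 and its neighbour Il23r 0.00, and Il6st had -0.85 and its neighbour Il31ra -0.26. In the other 4 pairs (Il18r1 with Il18rap, Il22ra2 with Il20ra, Il2ra with Il15ra, and Il17re with Il17rc) neither gene passed. The difference between neighbours was not tested.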

How the data were processed

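Dendritic cells were sorted from bone marrow and spleen of 4 mice and profiled on 8 arrays, with labelled cDNA made from 100 pg to 2 ng of RNA, per the labels' protocols. For every probe set the authors deposited a linear intensity on each array, for which the submitters' processing notes name Affymetrix Expression Console 1.4. The sources used here do not state how background, scaling and summarization were handled. Array medians lay between 125 and 135. Intensities have no read depth, and the number of arrays limits the precision.

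Of 35556 probe sets, 21789 had 1 gene symbol in the platform annotation, which left 19938 genes after keeping the brightest probe set per gene. The log2 of each deposited intensity went into lmFit and eBayes (limma 3.58.1, R 4.3.3), bone marrow minus spleen, with Benjamini-Hochberg adjustment over all genes and a threshold of 0.05. The script was tested on simulated data. Levels are geometric means, and SE is limma's moderated standard error.

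The 2 arrays of a mouse share a replicate number, per the description labels, so the numbers pair the samples. Their deviations from the group means correlated across genes with r of 0.0962, -0.0877, -0.178 and -0.0544 for mice 1 to 4. The labels name no test, and the model had no term for the mouse, which was added as a replicate block in an alternative.

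The genes, lists and alternatives were chosen with earlier results of these data known. Every measured receptor gene is named. Values on each array are given for called receptor genes and the largest fold of each family. Il4ra and Il2rb, given the same way, were chosen after their values were seen. From each pathway list up to 3 genes per direction past the threshold were named, with the chains that complete a receptor. Other genes were named after their values were seen. Alternatives were quantile normalization, median centring, leaving out the dimmest 40% of genes, averaging probe sets, an intensity trend, array weights, the replicate block, an offset of 16, and leaving out arrays.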

Additional observations from a re-analysis of the deposited data

Results flagged for a closer look

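In 4 of 72 groups of 4 arrays (36 receptor genes in each tissue) 1 array stood apart from the other 3 by Dixon's test at its 95% critical value, a count near the 1 in 20 that chance gives. Il4ra was 1009 in spleen replicate 4, against 1260 to 1304 in the other spleen arrays. Without that array its log2 fold change was 0.19 (limma adjusted p = 0.161). Spleen replicate 3 was low for Il17rc, at 138 against 168 to 173, and for Il20ra, at 32.1 against 35.1 to 35.3. Bone marrow replicate 1 was high for Il17rb, at 95.7 against 86.2 to 87.4. None of the 4 genes passed the threshold with or without that array.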

How the results depend on the processing

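Of the 13 called receptor genes, 10 passed under every one of the 17 alternatives in which they were tested. Il6ra, Il13ra1 and Il17ra lost the call under some, and of the 23 genes not called, Il2ra, Il2rb and Il31ra gained one, in each case only where arrays were left out. The count of receptor genes higher in bone marrow was 7 with all arrays, 5 to 7 when single arrays were left out, and 4 without spleen replicates 3 and 4 together, where Il6ra (adjusted p = 0.0804), Il13ra1 (0.059) and Il17ra (0.0931) did not pass. The cause was not tested beyond the smaller number of arrays. The count lower was 6, and 6 to 8 when single arrays were left out. Over all genes 1846 were higher and 1835 lower, with 1608 to 1759 higher and 1468 to 1820 lower when single arrays were left out. The mouse as a replicate block gave 1717 and 1661, and 7 and 6 receptor genes. It changed no call of a named receptor or pathway gene other than Stat6 and Crlf2.

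Among the pathway lists, JAK and STAT genes higher numbered 2 with all arrays, and 1 with median centring, with the replicate block or without spleen replicates 3 and 4 together. When single arrays were left out they numbered 1 to 3, and 3 with quantile normalization or without the dimmest genes. Partner chains higher numbered 2, and 1 with the replicate block or without spleen replicates 3 and 4 together, and 1 to 2 when single arrays were left out, through Crlf2. Ligands lower numbered 3, and 1 without the dimmest genes, which removes Il6 and Il1f6, and 2 to 3 when single arrays were left out. Regulators lower numbered 1, and 2 with array weights or without spleen replicates 3 and 4 together, and 1 to 2 when single arrays were left out. Without a detection call, a gene at low intensity can hide a difference, which touches 14 of the 36 receptor genes.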
